A study of Arabidopsis thaliana with 18 samples.

Results

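The response of Arabidopsis thaliana roots to 10 days without inorganic phosphate (Pi) was examined as the difference between the 3 root arrays of starved plants and the 3 root arrays of mock plants, which are 6 of the 18 arrays of the series. All 22746 probe sets of the ATH1 array that are not control probe sets of the manufacturer were included. The plants were Col-0 wild type, raised in hydroponic MGRL medium on rock wool for 20 days. Starved plants then spent 10 days in medium where the phosphate salt was replaced by a buffer, and mock plants stayed in full-strength medium, so that both were 30 days old when roots were taken. Each group has 3 biological replicates by its labels, which do not say how many plants went into an array. The p-values therefore measure the spread between these arrays. The other arrays hold shoots of the same treatments and organs of plants returned to full medium, and they enter only through the shared estimate of the spread and the comparison with shoots.

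Plants take up Pi through transporters of the root plasma membrane, and its lack is sensed through inositol pyrophosphates that bind the SPX domain. SPX proteins then release PHR1-type transcription factors, which turn on a set of starvation genes. Starved plants are known to secrete phosphatases, to replace phospholipids of their membranes by galactolipids and sulfolipids, to use glycolytic steps that spare Pi, and to make more root hairs.

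Starved roots held 353 probe sets with higher and 161 with lower transcript levels than mock roots at a Benjamini-Hochberg adjusted p at or under 0.001 from limma. These are 1.55% and 0.708% of the probe sets tested, or 2.26% together. Rises reached further than falls, with 234 rises of at least 2-fold, 76 of at least 4-fold and 16 of at least 16-fold against 104, 21 and 0 falls. The median rise was 1.20 and the median fall -1.19 on the log2 scale, and the median over all probe sets was 0.03. Probe sets that rose had a median log2 level of 5.92 in mock roots, close to 5.95 for all probe sets, and those that fell started at 7.46. In every called probe set the 3 starved values lay outside the range of the 3 mock values, as they did for 16% (above) and 10.2% (below) of all probe sets. The split between rises and falls rested on the scaling of the arrays, since centring on the biotin spike-ins gave 231 rises and 308 falls and moved the median of all probe sets to -0.10. The counts also rested on the spread taken from the other groups. A fit to the 6 arrays alone called 138 rises and 28 falls, of which 134 and 20 were among those above.

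The organ labels held in both groups. The mean of the 3 named root markers, PYK10, EXPA7 and EXPA18, was 9.52 to 9.71 in mock and 9.89 to 10.04 in starved roots. In mock shoots it was 5.11 to 5.27. By limma 0 of the 3 passed the test, with 1 higher at an unadjusted p under 0.05. The starved roots were above the mock roots in this mean without overlap, and 2 of its 3 genes are also in the root hair list. PYK10, a beta-glucosidase abundant in roots, stood at 12.06, 12.29 and 12.02 in mock roots and at 12.11, 11.94 and 11.91 in starved roots, against 7.97 to 8.07 in mock shoots. The mean of the 5 named green tissue markers was 4.09 to 4.58 in mock and 4.40 to 4.68 in starved roots. In mock shoots it was 11.97 to 12.08. One of the 5, HCEF1, a fructose bisphosphatase gene, rose (1.41, SE 0.22, adjusted p 5.3e-04), and the other 4 did not pass the test. The mean of the 10 named reference genes was 7.78 to 7.79 in mock and 7.73 to 7.84 in starved roots. None of them was called. The signal of the actin and GAPDH control probe sets at the 3′ end exceeded that at the 5′ end by 1.43 to 1.57 in mock and 1.27 to 1.34 in starved roots, so that the groups did not overlap in this measure of RNA integrity. Its part in the changes described was not tested. In whole roots, fewer cells of a type and less RNA per cell cannot be told apart.

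Starved array 3 responded less than starved arrays 1 and 2. Over the probe sets called without it, its difference from the mock mean had a median of 0.64 of the mean difference of arrays 1 and 2. Arrays 1 and 2 treated in the same way, a comparison added after the values were seen, gave 1.05 and 1.12. The share was 0.74 for rises (quartiles 0.56 and 0.87) and 0.48 for falls (0.29 and 0.68). Array 3 was the lowest of the starved arrays in 295 of 354 rises and the highest in 276 of 300 falls. It lay within or below the mock range in 12 of the rises and within or above it in 37 of the falls. On the first principal component of the 6 arrays, which held 65.4% of the variance, it stood at 13.4, between the others, with the other starved arrays at 40.5 and 38.0 and the mock arrays between -36.3 and -26.9. On the second component, with 13.6% of the variance, it stood apart from all 5 others at -30.0. Its mean over the reference genes was 7.73, the lowest of the 6 arrays, and its 3′ to 5′ difference lay between those of arrays 1 and 2. Leaving the array out gave 354 rises and 300 falls, or 1.56% and 1.32% of the probe sets and 2.88% together. Of these, 285 rises and 135 falls were also called with all arrays, and 165 falls were called only without array 3.

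**Figure D1:**
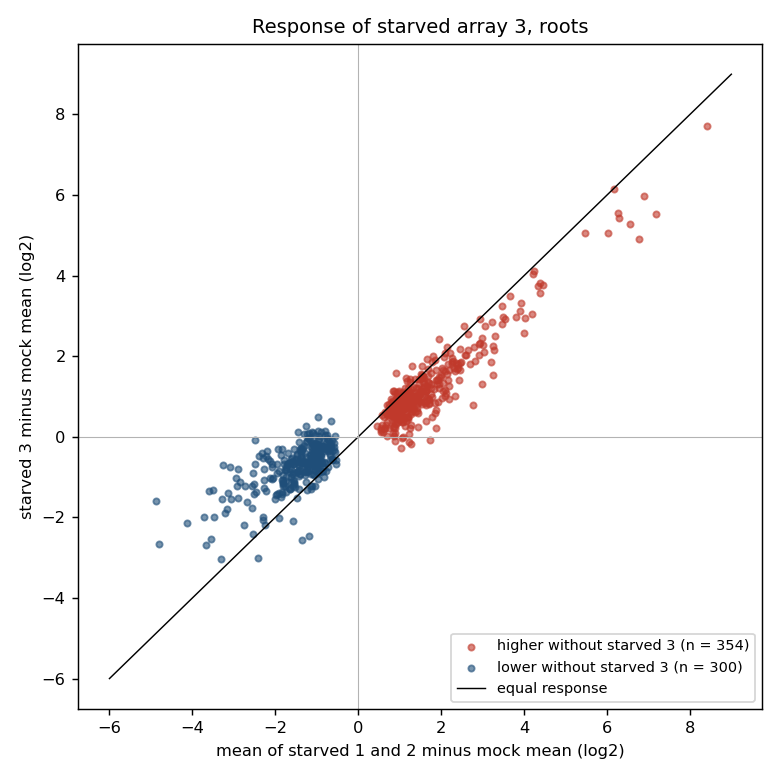
Each point is a probe set called without starved array 3, with the mean difference of starved arrays 1 and 2 from the mock mean on the x axis and the difference of starved array 3 on the y axis, both on the log2 scale. Red points are the 354 rises, blue points the 300 falls and the line marks an equal response. Most rises lie below the line and most falls above it, with a median share of 0.74 and 0.48.

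The array's median share differed among groups of genes, but the ranges within these groups overlapped. The members called without the array had a median share of 0.91 in the phosphate transport list (6 probe sets), 0.84 in phosphate signalling (5), 0.83 in phosphate scavenging (13) and 0.83 in membrane lipid remodelling (10). The phosphate members all rose, and the share over all rises was 0.74. In the iron uptake list, where all 5 fell, the share was 0.73, against 0.48 over all falls. In a group of 9 genes of sugar and starch metabolism, picked after the values were seen, it was 0.64. These shares are descriptions of few probe sets and were not compared by a test.

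Gene names came from 2 sources, which differ in what a count means. The platform table named 13513 of the tested probe sets for 1 gene, and 1.3% of these rose and 0.651% fell. A further 551 were named through the probe table of the study, which lists only probe sets that responded in the study's own root or recovery tests. Many classical Pi genes are known only through that table. Their levels are measured here in the same way. The number of them that passed the test is set by how they came to be named and supports nothing. The platform table gave several genes for 503 probe sets, and 8179 had no name. Listed genes without a named probe set may be among these and are left out of the list counts.

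The largest rise was that of AT5G20790, a gene with no symbol in the tables used. Its log2 values were 3.39, 3.40 and 3.64 in mock roots and 11.85, 11.95 and 11.20 in starved roots. It went from near the bottom of the scale to near the top in all 3 arrays (8.19, SE 0.29, adjusted p 1.8e-11; 8.42 without array 3). Whether such dim mock values were above background is unknown, so the ratio is not exact. AT5G17340, also with no symbol, stood at 2.74, 2.76 and 2.45 in mock and at 9.71, 9.97 and 8.18 in starved roots (6.64, SE 0.32, adjusted p 9.3e-10; 7.19 without array 3). OCT1, a carnitine and organic cation transporter, stood at 4.68, 3.95 and 4.35 in mock and at 11.18, 11.04 and 9.24 in starved roots (6.16, SE 0.34, adjusted p 3.5e-09). For both genes array 3 was the lowest of the starved arrays by more than 1 log2 unit, and the groups were far apart all the same. AT2G04460 behaved differently, with 2.48, 2.40 and 2.40 in mock and 8.75, 8.46 and 8.59 in starved roots. There array 3 lay between the other starved arrays (6.17, SE 0.15, adjusted p 7.8e-14). All 12 of the largest rises passed the test under every alternative run.

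**Figure D2:**
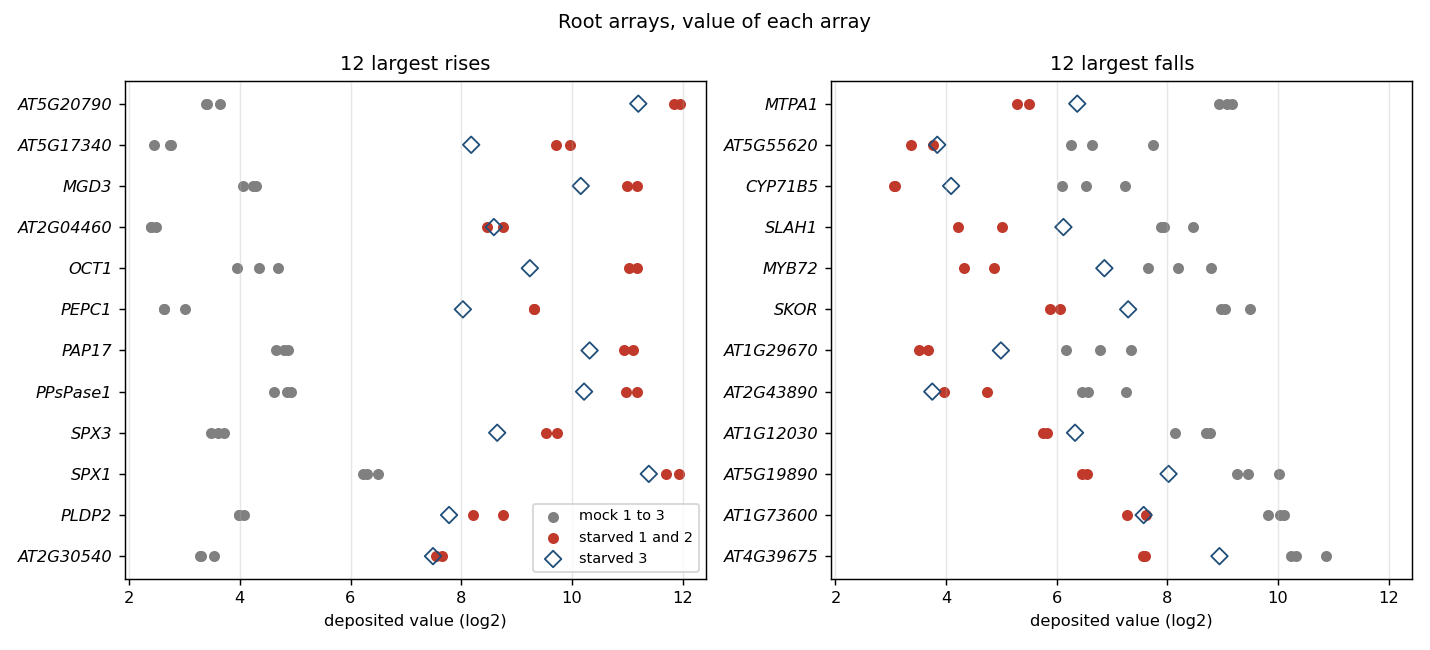
The deposited log2 value of each root array is shown for 24 called probe sets with 1 gene name, 12 that rose most and 12 that fell most. Grey points are the 3 mock arrays, red points starved arrays 1 and 2, and open diamonds starved array 3. The groups are apart in every row, and array 3 lies nearer to the mock arrays in most rows, as for OCT1 (9.24) and MYB72 (6.86).

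Several transporters that bring Pi into the root rose, and so did their trafficking factor. Of 19 listed transport genes 10 had a name, 9 of these only through the study's table. How many of them rose is therefore set by the naming. PHT1;8, a high-affinity Pi transporter of the plasma membrane, had log2 values of 4.41, 4.05 and 3.83 in mock and 8.09, 8.56 and 8.13 in starved roots (4.16, SE 0.16, adjusted p 3.2e-11). PHT1;9 of the same family stood at 5.11, 5.01 and 5.39 in mock and at 8.13, 8.09 and 8.10 in starved roots (2.94, SE 0.17, adjusted p 6.2e-09). In these 2 transporters array 3 responded about as much as the others. PHT1;5 stood at 3.54, 3.57 and 3.56 in mock and at 5.63, 6.37 and 4.96 in starved roots (SE 0.25, adjusted p 2.8e-05), and PHT1;3 rose by 1.78 (SE 0.23). In both of these array 3 was the lowest of the starved arrays. PHF1, which is needed for PHT1 proteins to leave the endoplasmic reticulum, rose from between 8.45 and 8.66 to between 10.52 and 10.67 (2.04, SE 0.10, adjusted p 1.3e-09). PHO1;H1, of the family that loads Pi into the xylem, rose by 2.16 (SE 0.17). PHO1 itself stood at -0.41 (adjusted p 0.055), and the organelle transporters PHT2;1 (0.66) and PHT3;1 (0.24, adjusted p 0.12) did not pass either. AT1G63010, the 1 member of the transport list with a platform name, rose by 0.77 (SE 0.13, adjusted p 6.7e-04) and stood at 0.69 without array 3, where it was not called (adjusted p 0.0031).

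The signalling genes with the highest rises were the SPX genes. SPX3 stood at 3.71, 3.47 and 3.61 in mock and at 9.73, 9.53 and 8.65 in starved roots (5.71, SE 0.33, adjusted p 6.3e-09). SPX1 stood at 6.29, 6.22 and 6.50 in mock and at 11.70, 11.94 and 11.39 in starved roots (5.34, SE 0.20, adjusted p 3.4e-11). SPX2 rose by 2.15 (SE 0.12, adjusted p 3.3e-09), less than the other 2. Of the 9 probe sets of 8 listed signalling genes with a platform name, 2 rose and 0 fell, with a median of 0.01. The 2 were AT3G25790, described in the study as a putative MYB factor (1.79, SE 0.23, adjusted p 7.8e-05), and AT1G68670 (1.54, SE 0.10, adjusted p 3.1e-08). AT1G25550 just missed the threshold (1.31, adjusted p 0.0013). LPR1, a multicopper oxidase that acts in Pi sensing at the root tip, stood at 0.49 (adjusted p 0.038) and its relative LPR2 at -0.24. The SUMO ligase gene SIZ1 gave -0.06 and -0.15 from 2 probe sets, and WRKY6 and WRKY42 stood at -0.36 and 0.01.

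Genes that free Pi from organic compounds held several of the largest rises. PAP17, a secreted purple acid phosphatase, stood at 4.79, 4.87 and 4.65 in mock and at 10.95, 11.11 and 10.32 in starved roots (6.02, SE 0.21, adjusted p 1.8e-11). PEPC1, a phosphatase of phosphoethanolamine and phosphocholine whose symbol is not that of the carboxylases described further on, stood at 3.01, 2.62 and 2.62 in mock and at 9.31, 9.32 and 8.03 in starved roots (6.14, SE 0.44, adjusted p 1.1e-07). PPsPase1, a pyrophosphate-specific phosphatase, stood at 4.61, 4.86 and 4.93 in mock and at 11.18, 10.98 and 10.22 in starved roots (5.99, SE 0.43, adjusted p 1.1e-07). These 3 genes were near or below the median of all probe sets in mock roots and among the higher values in starved roots. GDPD1, which splits glycerophosphodiesters left by lipid breakdown, rose by 4.19 (SE 0.21), and GDPD2 and GDPD5 by 1.55 and 1.37. Without array 3 GDPD2 stood at 1.50 and just missed the threshold (adjusted p 0.0017). G3Pp1, a glycerol-3-phosphate permease, rose by 3.61 (SE 0.34). The purple acid phosphatases differed widely, with PAP22 at 2.17, PAP6 at 2.15, PAP12 at 2.13, PAP10 at 1.45 and PAP23 at 1.16. PAP12 was already well expressed in mock roots (8.33 to 8.45), whereas PAP6 and PAP23 were dim there (2.47 to 2.57 and 2.57 to 2.84). AT1G13750, the only scavenging gene with a platform name, rose by 1.68 (SE 0.18, adjusted p 1.1e-05). PAP24 (1.88, adjusted p 0.0019), which passed without array 3 (2.19), and G3Pp3 (0.53, adjusted p 0.22) did not pass.

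Each step of the exchange of phospholipids for lipids without phosphorus held genes that rose. MGD3, a synthase of monogalactosyldiacylglycerol, stood at 4.23, 4.29 and 4.05 in mock and at 10.99, 11.17 and 10.16 in starved roots (6.58, SE 0.28, adjusted p 1.9e-10). Its relative MGD2 rose by 3.66 (SE 0.25). The digalactolipid synthases DGD2 and DGD1 rose by 1.49 (SE 0.11) and 1.18 (SE 0.12) from higher starting levels. On the sulfolipid branch, SQD2 stood at 5.95, 6.27 and 6.48 in mock and at 10.44, 10.80 and 9.80 in starved roots (4.11, SE 0.24, adjusted p 8.6e-09). SQD1, which makes the sulfosugar precursor, rose by 3.24 (SE 0.19), and UGP3, which supplies UDP-glucose in plastids, rose by 2.90 (SE 0.25). Among enzymes of phospholipid breakdown, PLDP2, the phospholipase D zeta 2 gene, rose by 4.23 (SE 0.24, adjusted p 5.2e-09) and the phosphatidate phosphatase gene PAH1 by 1.34 (SE 0.14). All 9 of these genes were named through the study's table. They kept their call without array 3, and array 3 was below the mean of the other starved arrays in each, with UGP3 at 5.97 against 6.99 and 7.21. Of the 2 listed lipid genes with a platform name, 0 rose and 1 fell. AT1G73600 stood at 10.10, 10.03 and 9.82 in mock and at 7.62, 7.27 and 7.57 in starved roots (-2.50, SE 0.18, adjusted p 1.1e-07). PMEAMT, a methyltransferase of phosphocholine synthesis, stood at -0.29 (adjusted p 0.19). PLC2, a phosphoinositide-specific phospholipase C, and ITPK2, an inositol phosphate kinase, rose by 1.27 and 1.81, and were picked after their values were seen.

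**Figure D3:**
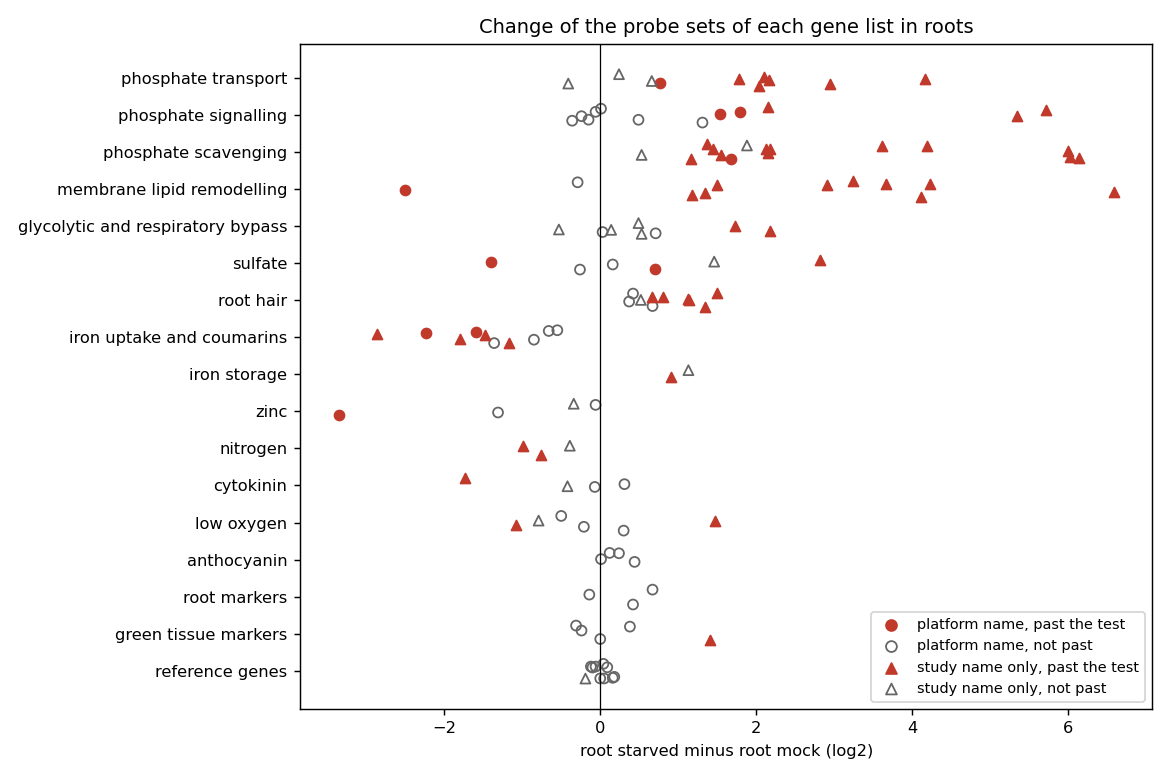
Each symbol is a probe set of a gene list, at its change in roots (starved minus mock, log2) on the x axis. Filled red symbols passed the test and open symbols did not, and triangles are probe sets named only through the study's table, where the number that passed is set by the naming. The phosphate and membrane lipid lists lie mostly to the right of 0 and the 10 named iron uptake genes all to the left. The reference genes lie between -0.19 and 0.18. The position of the triangles rests in part on the naming too. Platform-named probe sets had a median of 0.01 in phosphate signalling (9), -1.40 in membrane lipids (2) and -1.10 in iron uptake (6). The 1 such probe set of phosphate transport stood at 0.77 and the 1 of scavenging at 1.68.

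In the list of glycolytic and respiratory bypass enzymes, 0 of 2 platform-named genes and 2 of 6 named through the study's table passed the test. PPC2, a phosphoenolpyruvate carboxylase gene, stood at 8.05, 8.06 and 7.68 in mock and at 9.79, 9.96 and 9.23 in starved roots (1.73, SE 0.15, adjusted p 1.0e-06). PPCK2, a kinase that activates such carboxylases, rose by 2.18 (SE 0.31). PPC3 (0.53, adjusted p 0.052), the alternative oxidase gene AOX1A (0.49, adjusted p 0.051), the non-phosphorylating dehydrogenase gene NPGAPDH (0.71, adjusted p 0.0045) and the carboxykinase gene PCK1 (-0.53, adjusted p 0.034) did not pass. Genes of sucrose and starch were noticed among the calls after the values were seen. The sucrose-phosphate synthase genes SPS2F (2.61, SE 0.20), SPS4F (2.62, SE 0.25) and SPS1F (1.46, SE 0.17) rose, as did the sucrose synthase gene SUS4 (1.47, SE 0.14). SPS2F had the same direction in each array, with 5.01, 4.96 and 5.18 in mock and 7.71, 7.99 and 7.27 in starved roots. The starch genes SEX4, a glucan phosphatase (1.76, SE 0.14), and APL1, a subunit of the ADP-glucose pyrophosphorylase (1.35, SE 0.22), rose. So did AT4G24450, which carries the symbol PWD in the names used (1.57, SE 0.26). Array 3 was the highest starved array in SEX4 and the lowest in the other 2. SWEET14, a sugar exporter, was the 1 riser among 14 platform-named SWEET probe sets (1.26, SE 0.17, adjusted p 9.8e-05). Soluble pyrophosphatases also rose and were likewise picked afterwards, PPa3 by 1.81, PPa4 by 1.41 and PPa5 from between 9.82 and 9.87 to 11.04, 11.06 and 10.77 (adjusted p 6.9e-06).

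The largest fall was that of MTPA1, a metal tolerance protein of a family that carries zinc. It stood at 9.08, 8.94 and 9.17 in mock and at 5.50, 5.28 and 6.37 in starved roots, a 10.2-fold drop (-3.35, SE 0.25, adjusted p 1.5e-07; -3.67 without array 3). CYP71B5, a cytochrome P450 gene, stood at 7.24, 6.10 and 6.52 in mock and at 3.08, 3.05 and 4.09 in starved roots (-3.21, SE 0.29, adjusted p 1.8e-06). AT5G55620, with no symbol, stood at 7.73, 6.64 and 6.26 in mock and at 3.77, 3.37 and 3.84 in starved roots (-3.22, SE 0.48, adjusted p 2.8e-04). The mock arrays were further apart in these last 2 genes than in MTPA1. The genes of 2 ion channels were among the 12 largest falls and were singled out after their values were seen. SKOR, the outward potassium channel that releases potassium into the xylem, stood at 8.97, 9.49 and 9.04 in mock and at 6.05, 5.88 and 7.29 in starved roots (-2.76, SE 0.27, adjusted p 4.2e-06). SLAH1, a homologue of the slow anion channel SLAC1, stood at 7.89, 8.47 and 7.93 in mock and at 5.01, 4.21 and 6.12 in starved roots (-2.98, SE 0.33, adjusted p 1.3e-05). Array 3 kept a level between the other starved arrays and the mock arrays in both channels. Other carriers of potassium and related ions rose, the potassium transporter KUP9 by 0.90 (SE 0.14) and the cation exchanger CHX17 by 2.68 (SE 0.40), the latter at 2.63 without array 3, where it just missed the threshold (adjusted p 0.0012). These 2 were picked after their values were seen. All 12 of the largest falls kept their call without array 3, but only MTPA1 and AT1G73600 passed under every alternative run.

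Of the 27 genes in the iron uptake list 10 had a named probe set, so the list as a whole was not covered. All 10 had a lower mean in starved than in mock roots. Of these, 4 were named only through the study's table. Of 6 listed genes with a platform name 2 fell and 0 rose, with a median of -1.10, against 0.03 for all probe sets, and all 6 were lower at an unadjusted p under 0.05, as were 10.1% of all probe sets, with 13% higher. AT3G12900 stood at 11.80, 11.02 and 10.94 in mock and at 9.04, 8.86 and 9.18 in starved roots (-2.23, SE 0.17, adjusted p 2.8e-07). BGLU42, a beta-glucosidase of coumarin release, stood at 10.71, 10.03 and 9.71 in mock and at 8.42, 8.33 and 8.93 in starved roots (-1.59, SE 0.23, adjusted p 2.0e-04). The other 4, BHLH101 (-1.36), F6H1 (-0.85), AT1G28680 (-0.66) and PYE (-0.55), had the same sign and did not pass. Among genes named through the study, MYB72, a factor of the iron deficiency response, stood at 8.78, 8.19 and 7.64 in mock and at 4.86, 4.32 and 6.86 in starved roots (-2.86, SE 0.44, adjusted p 3.9e-04). Its array 3 value was the nearest to mock of all 12 leading falls relative to the other starved arrays, and without it the change was -3.61. The nicotianamine synthase gene NAS1 (-1.80, SE 0.27), the mitochondrial ferric reductase gene FRO3 (-1.48, SE 0.25) and the exporter gene PDR9 (-1.17, SE 0.15) fell too. FRO3 stood at -1.57 without array 3, which did not pass (adjusted p 0.0014). The ferritin gene FER2, whose product stores iron, rose by 0.91 (SE 0.13, adjusted p 2.6e-04), and FER3 passed only without array 3 (1.13 with it, adjusted p 0.0015, and 1.38 without).

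For other nutrients few listed genes had a name, 4 of 14 for zinc, 6 of 20 for sulfate and 3 of 15 for nitrogen. Whether these lists moved as a whole therefore cannot be judged. Of 3 zinc genes with a platform name MTPA1 fell, ZIP9, a zinc importer, stood at -1.31 (adjusted p 0.0091) and the regulator BZIP19 at -0.06. Of 4 sulfate genes with a platform name 1 rose and 1 fell, both ATP sulfurylases, with APS4 at 0.70 (SE 0.11; 0.68 and not called without array 3) and APS3 at -1.40 (SE 0.23). The sulfate transporter gene SULTR1;3 rose from between 2.33 and 2.59 to 4.96, 5.99 and 4.95 (2.81, SE 0.27, adjusted p 3.6e-06). SULTR3;5 fell by 1.27 on the log2 scale. LSU4 rose (1.76, SE 0.18, adjusted p 4.5e-06), and LSU2 of the sulfate list did not pass (1.46, adjusted p 0.011). Of 3 nitrogen genes, all named through the study's table, 2 fell and LBD37, a regulator of nitrogen responses, did not pass (-0.39, adjusted p 0.14). NIA1, a nitrate reductase gene, stood at 11.32, 11.73 and 11.52 in mock and 10.33, 10.47 and 10.80 in starved roots (-0.99, SE 0.13, adjusted p 7.8e-05), and the nitrite reductase gene NIR1 at a change of -0.76 (SE 0.12). The MADS gene ANR1, which acts in lateral root growth on nitrate, fell by 1.14 (SE 0.17). IPT3, a nitrate-responsive enzyme of cytokinin synthesis, stood at 7.98, 7.82 and 7.93 in mock and at 6.18, 5.84 and 6.52 in starved roots (-1.73, SE 0.18, adjusted p 7.6e-06). CYP735A2, which makes trans-zeatin cytokinins, fell by 1.57 (SE 0.26), whereas the cytokinin response regulators ARR15 (0.31) and ARR16 (-0.07) did not pass. SULTR3;5, LSU4, ANR1 and CYP735A2 were picked after their values were seen.

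Of the root hair list, 0 of 3 platform-named genes passed the test, and 6 of 7 named through the study's table rose, a count set by the naming. RHD6, the bHLH factor that starts hair formation, stood at 5.23, 5.24 and 5.78 in mock and at 6.95, 7.04 and 6.76 in starved roots (1.50, SE 0.15, adjusted p 4.5e-06). RHS18 (1.34), PRP3, a wall protein of hairs (1.14), RHS12 (1.12), COW1, a phosphatidylinositol transfer protein of hair tips (0.81), and RHS19 (0.66) rose too. Without array 3 the changes of COW1 and RHS19 were 0.77 and 0.64 and just missed the threshold (adjusted p 0.0024 and 0.0012). Of the 3 with a platform name 1 was higher at an unadjusted p under 0.05 by limma, with EXPA18 at 0.67 (adjusted p 0.0076), EXPA7 at 0.42 (adjusted p 0.22) and TRY, a small MYB-type protein of epidermal patterning, at 0.37. Outside the list and picked after the values were seen, RHS16 (1.46), XTH14 (1.23), MRH6 (1.02), EXT13 (adjusted p 2.0e-04), IRE (0.89) and SHV2 (0.89) rose. IRE stood at 0.96 without array 3 and was then not called. Some developmental genes moved in the opposite direction, among them the receptor gene CLV1 (-1.22, SE 0.14) and the peptide gene CLE6 (-1.34, SE 0.22), and MYB85, a factor of secondary walls (-1.53, SE 0.22). The auxin response factor gene ARF9 rose evenly in all arrays, from 7.82, 7.69 and 7.90 to 9.46, 9.23 and 9.27 (1.52, SE 0.12, adjusted p 2.5e-07). Of the NF-YA subunits of CCAAT-binding complexes, NF-YA7 rose by 2.09, NF-YA2 by 1.29 and NF-YA10 by 1.26. The phloem protein genes PP2-A4 (-1.94), PP2-A6 (-1.41) and PP2-A1 (-1.07) fell. EXPA17, an expansin gene, was unlike most falls in that array 3 was the lowest, at 6.67 against 7.71 and 8.05 in the other starved arrays and 9.06 to 9.49 in mock roots. CLV1, ARF9 and the phloem protein genes were picked after their values were seen.

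Calls were also counted by family, against 1.3% of platform-named probe sets that rose and 0.651% that fell. The counts per family are small and were not compared by a test. Of 47 platform-named UDP-glycosyltransferase probe sets 0 were called by limma, with changes between -0.77 and 1.04, and 7 were higher and 3 lower at an unadjusted p under 0.05, near the 13% and 10.1% of all probe sets. Without array 3, 1 of them fell. Cytochrome P450 genes moved both ways, with 3 rises and 1 fall among 26, from CYP71B5 at -3.21 to CYP78A9 at 4.13 (SE 0.21, adjusted p 1.2e-09). Of 29 probe sets of serine carboxypeptidase-like genes, 3 rose and 2 fell, scpl22 by 3.53 (SE 0.28) and its neighbour scpl23 by 1.05 (SE 0.15), while scpl31 and scpl33 fell by 1.41 and 0.95 on the log2 scale. Of 42 AGAMOUS-like probe sets 1 fell, AGL71 (-0.77, SE 0.11; -0.73 and not called without array 3), and of 14 bZIP and 18 expansin probe sets 0 were called, with family medians of 0.00 and 0.05 and, at an unadjusted p under 0.05, 1 higher and 3 lower bZIP and 4 higher and 2 lower expansin probe sets. The 4 named anthocyanin genes, of 15 listed, lay between 0.01 and 0.44 in roots. By limma 0 were called there, and also 0 passed an unadjusted p under 0.05. Anthocyanin genes are known to be induced in starved shoots. In the shoots of this series these 4 lay between 0.42 and 1.27, and none was called. The difference between organs passed the test for none of them.

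Several other carriers and regulators with large changes belong to none of these roles. Of those given here, PFA-DSP4, PFA-DSP1, YSL8 and MT2A were picked after their values were seen, and the others came from their families. UMAMIT14, an amino acid exporter, stood at 5.20, 5.11 and 4.97 in mock and at 8.10, 8.50 and 6.94 in starved roots (2.75, SE 0.35, adjusted p 5.5e-05), while UMAMIT29 fell by 1.74 and UMAMIT22 by 0.97 on the log2 scale. These UMAMIT genes and the other genes given here were named only through the study's table of responsive probe sets, so they do not describe their families. Array 3 was the furthest from mock in UMAMIT29 and the nearest in UMAMIT14. PFA-DSP4 and PFA-DSP1, dual-specificity phosphatases related to enzymes that act on inositol pyrophosphates, rose by 3.11 (SE 0.14) and 2.76 (SE 0.19). CRF8, a cytokinin response factor, rose by 2.01 (SE 0.21), and the glutathione transferase gene GSTU14 by 2.37 (SE 0.19). The aquaporin genes TIP1;3 (1.47, SE 0.16) and PIP2E (0.86, SE 0.11) rose, and so did the metal chelate transporter gene YSL8 (1.24, SE 0.12). The MYB genes MYB40 (1.53), MYB74 (1.20) and MYB45 (1.13) rose, and MYB85 and MYB72, given above, fell. The metallothionein gene MT2A stood at 8.26, 8.17 and 8.27 in mock and at 6.24, 6.60 and 7.01 in starved roots (-1.62, SE 0.16, adjusted p 3.8e-06). The transcription factor genes NAC003 (-1.85, SE 0.24), WRKY74 (-1.15, SE 0.12) and WRKY23 (-0.93, SE 0.14) and the receptor-like kinase genes CRK20 (-0.93), CRK28 (-0.86) and CRK29 (-0.80) fell.

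The remaining lists held few named genes. In the low oxygen list SUS4 rose and HB1, a haemoglobin gene, fell by 1.08 on the log2 scale (SE 0.18). HRE1, an ERF factor of the low oxygen response, was split by array 3, with 8.94, 9.08 and 8.83 in mock and 7.60, 7.95 and 8.92 in starved roots, and did not pass with it (adjusted p 0.067) or without it (adjusted p 0.0014). PDC2, a pyruvate decarboxylase gene, had the same shape (-0.50, adjusted p 0.13). CDKB2;2, a kinase of dividing cells, rose by 0.79 (SE 0.13), and FAR1, an enzyme of suberin synthesis, stood at -0.82 (adjusted p 0.028). The cytokinin oxidase gene CKX4 stood at -0.42 (adjusted p 0.064).

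Along the chromosomes, 17 pairs of adjacent protein-coding genes were found among the 486 named genes called in roots, and 15 of the 17 pairs changed in the same direction. They included PHF1 next to SEX4 (2.04 and 1.76), scpl22 next to scpl23, and SULTR1;3 next to AT1G22160 (2.81 and 0.91). NAS1 and AT5G04960 (-1.80 and 1.20) were 1 of the 2 pairs that changed in opposite directions. In SPX1 and HBP5 (5.34 and 0.95) and in PPsPase1 and PYL3 (5.99 and 0.79) a large change stood beside a small one. Cross-hybridization between such neighbours was not tested. How many adjacent pairs to expect among the called genes was not worked out. Since rises outnumbered falls among the calls, some pairs would agree in direction without any link. The counts of pairs are therefore a description. In 2 genes with a pair of probe sets each, picked after their values were seen, the pairs were alike, with AT3G44510 at 1.95 and 1.94 and AT1G74770 at -1.38 and -1.59.

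More probe sets passed the test in roots than in shoots. In shoots 88 probe sets rose and 3 fell (0.387% and 0.0132%), and 60 of the shoot rises were among the root rises, which is 17% of the root rises and 68.2% of the shoot rises. By a test of the difference between the organs, which shares the root arrays with the choice of these probe sets, 39 of the root rises were larger in roots and 0 were smaller, and 17 of the root falls were larger in roots, with 0.18% and 0.0923% of all probe sets called in the 2 directions. AT5G17340 changed by 6.64 in roots and 0.69 in shoots (difference 5.95, SE 0.45, adjusted p 3.0e-06), and PHT1;8 by 4.16 and -0.01 (difference 4.17, SE 0.22, adjusted p 3.1e-08). PAP17 rose in both organs and more in roots (6.02 and 2.49, difference 3.53, SE 0.30, adjusted p 7.0e-06). GDPD1 (4.19 in roots and 5.24 in shoots), MGD2 (3.66 and 3.64) and PPsPase1 (5.99 and 5.54) rose in both, and the difference between organs did not pass the test. MTPA1 and SKOR fell in roots and stood at -0.05 and 0.18 in shoots, and both differences passed. In shoots, starved array 3 had a share of 0.73 and arrays 1 and 2 had 1.07 and 1.27, over 60 probe sets called in shoots and, without root starved array 3, in roots. Whether root and shoot arrays of the same number share plants is not given in the labels. The test of the difference treats them as independent.

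**Figure D4:**
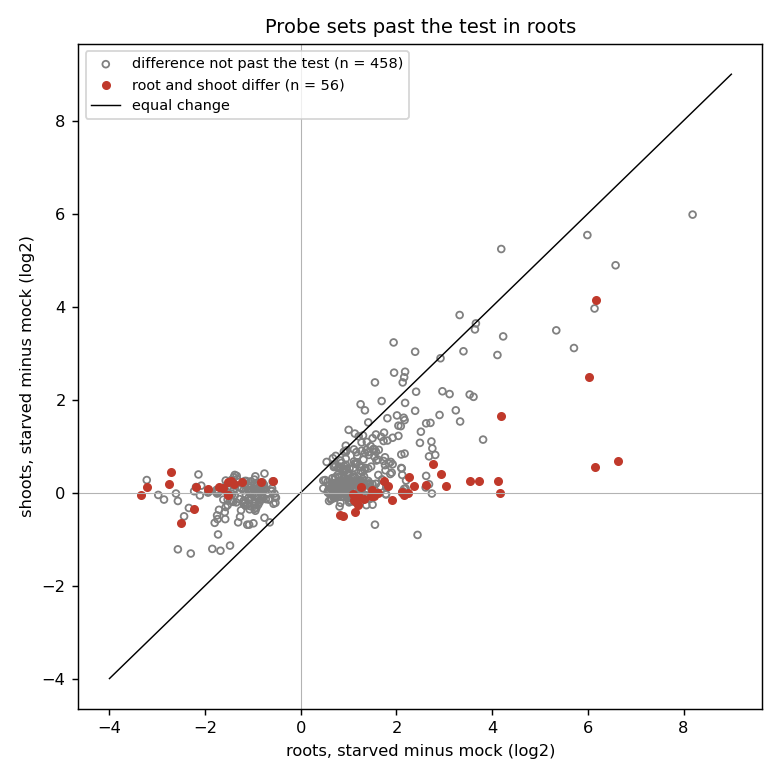
Each point is a probe set called in roots, with the root change on the x axis and the shoot change on the y axis (starved minus mock, log2). Red points passed the test of the difference between organs and the line marks equal change. The points were chosen by the root test, so their smaller changes in shoots are a description, with a median shoot change of 0.24 for the root rises and -0.01 for the root falls.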

How the data were processed

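RNA of roots and shoots was hybridized to Affymetrix ATH1 arrays. The deposited values are on the log2 scale and were made by the authors in the R package affy, whose version the sources used here do not give. Background was corrected, arrays were brought to common quantiles, and probes were summarised by median polish. The values were used as deposited. Detection of each probe set is unknown because scanner files were not analysed here, and precision is limited by the number of arrays. Quantile normalization over all arrays fixes the overall distribution, so a shift of most transcripts in one direction would be hidden.

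The 18 arrays were fitted with 6 group means in limma 3.58.1 (lmFit, then eBayes) under R 4.3.3 (12 residual degrees of freedom, 16.5 after moderation), and all adjusted p-values come from this fit over 22746 probe sets, two-sided, with a threshold of 0.001. The difference is starved minus mock and SE is the moderated standard error. Bonferroni adjustment, the choice in the methods of the study, is among the alternatives. On simulated data for this comparison over 22746 probe sets, 72% of the rises and 74% of the falls of 1 log2 unit were recovered. For 2 units the shares were 100% and 96%, and 0 unchanged probe sets were called. These rates hold for the simulated data, and whether they carry over to the real arrays was not tested. The array 3 share is the median of its difference from the mock mean divided by that of arrays 1 and 2.

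Named genes were the 12 largest rises and falls with 1 gene and no overlap, up to 6 genes per list by p with every called member, and up to 4 called per family, from 20 lists with 307 genes and 32 families. A further 54 genes were added after their values were seen. The members and lists were chosen with earlier results of these data known. Names came from the platform table or, for 551 probe sets, the study's probe table, and symbols from RefSeq. A listed symbol was used only where RefSeq gives it for the locus. Because RefSeq gave no gene descriptions here, families were matched on the start of the symbol. No build of the array was given, so no coordinates are printed. Promoter and protein sequences were not used here, and the planned count of promoter motifs was not run.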

Additional observations from a re-analysis of the deposited data

Results flagged for a closer look

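The root and shoot responses of 33 named probe sets differed by the test of the difference between organs, which is limma's contrast of the starved minus mock change in roots with that in shoots (adjusted p at or under 0.001 over all probe sets). This test treats root and shoot arrays as independent. Each value below is the difference between organs on the log2 scale. A total of 24 lay above 0, that is, AT5G17340 (5.95), OCT1 (5.60), PHT1;8 (4.17), CYP78A9 (3.89), PAP17 (3.53), scpl22 (3.29), AT2G30540 (2.54), PHT1;9 (2.53), SPS2F (2.45), GSTU14 (2.22), PAP6 (2.21), PFA-DSP1 (2.16), AT2G04460 (2.03), CYP82F1 (1.64), FLA6 (1.60), MYB40 (1.59), ARF9 (1.56), RHD6 (1.55), PRP3 (1.55), PPC2 (1.49), CYP91A2 (1.47), DGD2 (1.44), MYB45 (1.32), GSTU28 (1.31). The other 9 lay below 0, that is, CLV1 (-1.44), MT2A (-1.71), AT1G73600 (-1.84), AT3G12900 (-1.86), PP2-A4 (-2.03), SKOR (-2.94), AT1G29670 (-3.15), MTPA1 (-3.30), CYP71B5 (-3.32).

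The transporters PHT1;8 and PHT1;9, the synthase DGD2, the carboxylase PPC2 and the root hair factor RHD6 were among those that rose in roots and stood between -0.05 and 0.41 in shoots. Groups of 3 arrays were too small for a search for single arrays that stand apart, and starved array 3 is described above by its share of the response. What sets the organs or the arrays apart was not tested.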

How the results depend on the processing

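Of 158 named probe sets that were called, 0 changed sign under the alternatives run and 45 were called under every one. Of the 38 not called, 6 changed sign under at least 1 of them, among them HRA1 (0.30, and -0.18 without starved array 3). The count of 353 rises and 161 falls moved by over 1.5 times under several. Rises and falls numbered 138 and 28 in the fit to the 6 root mock and starved arrays, 169 and 41 with the 9 root arrays, 104 and 21 with Bonferroni at 0.001, 1189 and 1027 at an adjusted p of 0.05, 234 and 104 with a change of at least 1, 231 and 308 with centring on the spike-ins, and 120 and 25 with quantile normalization within the 6 arrays. The fits to fewer arrays have fewer residual degrees of freedom. Array weights gave 522 and 389, with a weight of 0.40 for starved array 3. The replicate number as a block in the fit to the root arrays gave 132 and 21, of which 127 and 18 were among the 353 and 161, and the numbers were not treated as pairs. Same-numbered mock and starved arrays had correlations of 0.18, 0.06 and 0.23 between their deviations from the group means, and unlike numbers -0.25 to 0.10. The labels do not tie a number to an experiment, so whether it marks one is not known. Leaving out 1 of the 6 arrays gave 201 to 354 rises and 74 to 300 falls. The highest counts came without starved array 3, and the lowest, 201 and 74, without starved array 2. Without starved array 1 they were 222 and 74, and without mock arrays 1, 2 and 3 they were 228 and 86, 230 and 95, and 225 and 96. Among platform-named list members, 5 rose with all arrays and 3 without starved array 3, and 5 fell in each case. The array 3 share of 0.64 was 0.62 to 0.80 under the alternatives run, and the same measure was 1.05 for array 1 and 1.12 for array 2, both added after seeing the data. The test of promoter motifs was not run for want of promoter sequences.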
